A study of Mus musculus with 48 samples.

Results

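A list of 8 DNA repair genes was followed in the liver and colon of mice: Msh6, Pms2, Ung, Ogg1, Mutyh, Mbd4, Apex1 and Mgmt. They were listed by function and not by any measured value, and every array probe whose accession belongs to one of them was used. This gave 10 of the 41174 probes on the array, for 7 of the 8 genes. Ogg1, Mutyh and Mbd4 had 2 probes each. No probe was matched to Mgmt, so it has no expression value here.

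Mismatch repair removes bases that DNA polymerase paired wrongly: MSH6 takes part in recognising the mismatch, and PMS2 cuts the new strand. Base excision repair starts with a glycosylase that removes a single damaged base. UNG removes uracil, OGG1 removes oxidised guanine, MUTYH removes the adenine placed opposite it, and MBD4 removes thymine or uracil opposite guanine at CpG sites. APEX1 then cuts the backbone at the empty site, whereas MGMT reverses alkylated guanine directly without excision. Folate supplies the methyl group that turns uracil nucleotides into thymine nucleotides, and selenium is part of enzymes that remove peroxides.

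The mice were of strain C57/BL6 and were sampled at 12 weeks of age. Their dams were fed a diet sufficient (H) or low (L) in selenium and folate through gestation and lactation, and the offspring were fed H or L from weaning. A group name gives the dam's diet before the offspring's, so that LH had a low dam diet and a sufficient diet after weaning. According to the study's methods all diets were high in fat and the offspring were male. Liver RNA came from 5 HH, 6 HL, 6 LH and 6 LL mice and colon RNA from 6 mice of each group, because 2 liver arrays carried the same HH animal and were averaged. Colon was sampled as tissue, with epithelium, muscle and other cells together, and in such bulk RNA fewer cells of a type and less RNA per cell cannot be told apart. Each mouse's RNA (Cy3) was hybridised beside one common reference RNA (Cy5), with no dye swap, and each value below is the log2 ratio of mouse over reference for 1 probe. The labels name the reference as RNA of many organs, the series' design text as a pregnant mouse with its foetus, and the study's methods as a pool from intestine and liver. A level against the reference was therefore compared between groups for the same probe, never between probes.

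Between 55.1% and 66.0% of spots were well above background in Cy3 on the liver arrays, and between 66.8% and 73.7% on the colon arrays. The tissues carried their own markers: all 6 measured hepatocyte markers were called higher in liver, and 8 of 9 markers of colon epithelium and 6 of 6 of smooth muscle were called higher in colon. The Xist signal was more than 4 times the median of its tissue in 2 liver and 6 colon mice, and in 1 and 3 of these the Y-linked Eif2s3y was also more than 4 times below the median, which goes against the stated sex. Without those mice 0 member probes were called for diet and 3 between the tissues, as with them.

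The promoter windows of the 8 genes are shown because they share features that the choice of genes did not use. RefSeq windows of 300 bases, from 250 before to 50 after the start (build GRCm38.p6), were found for 8 of 8 genes. A GC box, the letters GGGCGG on either strand with overlapping matches counted, was in the first window of 8 of 8 genes and in 35.7% of all windows. The CCAAT letters were in 6 of 8 first windows against 37.4% of all, and the TATAAA letters in 0 of 8 against 13.6%. E2F letters (TTTNGCGC) were in 0 of 8 first windows, against 1.38% of all, and the core of the antioxidant response element (TGACNNNGC) in 2 of 8, those of Pms2 and Mgmt, against 12.4%. The first windows held 16 to 37 CpG, against a median of 7 over all windows. Mgmt and Mutyh also had a second window, with 0 GC boxes each and with 3 and 2 CpG. The shares over all windows include such later windows, so first windows are set against a mixed background. The window of Msh6, at chr17:87974800-87975099 (+), held 5 GC boxes, 3 of them overlapping. Those of Ung (chr5:114130185-114130484 (+)) and Ogg1 (chr6:113326726-113327025 (+)) held 2 each, and that of Apex1 (chr14:50924699-50924998 (+)) held 1. These 4 genes are printed because Msh6, Ung and Ogg1 had the largest differences between the tissues and Apex1 the smallest. Capitals mark GC boxes on either strand.
Msh6: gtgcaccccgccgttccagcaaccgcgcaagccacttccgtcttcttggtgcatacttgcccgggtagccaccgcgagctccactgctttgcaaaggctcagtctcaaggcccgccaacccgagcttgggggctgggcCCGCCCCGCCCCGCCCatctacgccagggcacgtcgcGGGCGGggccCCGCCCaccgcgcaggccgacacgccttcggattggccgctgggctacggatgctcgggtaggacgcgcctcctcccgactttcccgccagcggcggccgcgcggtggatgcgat
Ung: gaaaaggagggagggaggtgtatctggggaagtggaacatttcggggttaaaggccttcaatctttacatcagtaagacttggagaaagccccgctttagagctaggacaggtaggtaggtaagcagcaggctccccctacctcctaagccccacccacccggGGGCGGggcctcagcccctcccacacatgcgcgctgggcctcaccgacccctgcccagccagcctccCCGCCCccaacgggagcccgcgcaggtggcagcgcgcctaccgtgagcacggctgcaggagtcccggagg
Ogg1: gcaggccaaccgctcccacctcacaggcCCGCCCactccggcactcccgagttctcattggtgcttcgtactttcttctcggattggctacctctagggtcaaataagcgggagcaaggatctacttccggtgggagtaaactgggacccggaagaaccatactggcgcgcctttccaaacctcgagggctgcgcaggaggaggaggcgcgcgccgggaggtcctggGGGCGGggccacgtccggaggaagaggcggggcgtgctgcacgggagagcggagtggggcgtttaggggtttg
Apex1: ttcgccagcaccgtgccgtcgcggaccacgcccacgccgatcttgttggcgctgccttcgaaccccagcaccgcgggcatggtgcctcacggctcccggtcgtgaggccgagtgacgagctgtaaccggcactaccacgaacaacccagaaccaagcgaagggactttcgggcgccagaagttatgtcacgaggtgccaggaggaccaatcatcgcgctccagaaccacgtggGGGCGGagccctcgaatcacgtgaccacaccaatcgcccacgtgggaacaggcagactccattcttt

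Among the members, 3 start close to a gene on the opposite strand. Apex1 lies 56 bases from Osgep, Pms2 162 bases from Aimp2, and Mutyh 175 bases from Toe1. The neighbours are described beside the tissue comparison.

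The first question was how the genes differ between liver and colon. Msh6 was 2.16-fold lower in liver than in colon (95% interval 1.98 to 2.34), and the lowest colon mouse was above the highest liver mouse. Ogg1 was 1.52-fold lower (1.40 to 1.64) and Ung 1.502-fold lower (1.36 to 1.66), both at the edge of the 1.5-fold limit. Under median centring in place of loess the log2 differences were -1.23 for Ogg1, -1.21 for Ung and -1.01 for Pms2, all past the limit. Pms2 was 1.39-fold lower, Mutyh 1.19-fold and Mbd4 1.12-fold. Apex1, at 1.04-fold higher in liver, did not pass the test. The limma fit over all probes called a probe at a fold over 1.5 and a Benjamini-Hochberg adjusted p (FDR) under 0.05. It called 3 of the 10 member probes, all higher in colon, where 15.7% of all probes were called higher in colon and 14.6% lower. At FDR under 0.05 with no fold limit, 8 of the 10 probes were higher in colon, against 33.5% of all probes, and 1 was lower, against 36.1%. Each slide held arrays of 1 tissue, so slide could enter only as a random block, and the same count of 3 was called with it. Liver and colon samples were fitted as separate animals, which the labels do not settle.

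**Figure D1:**
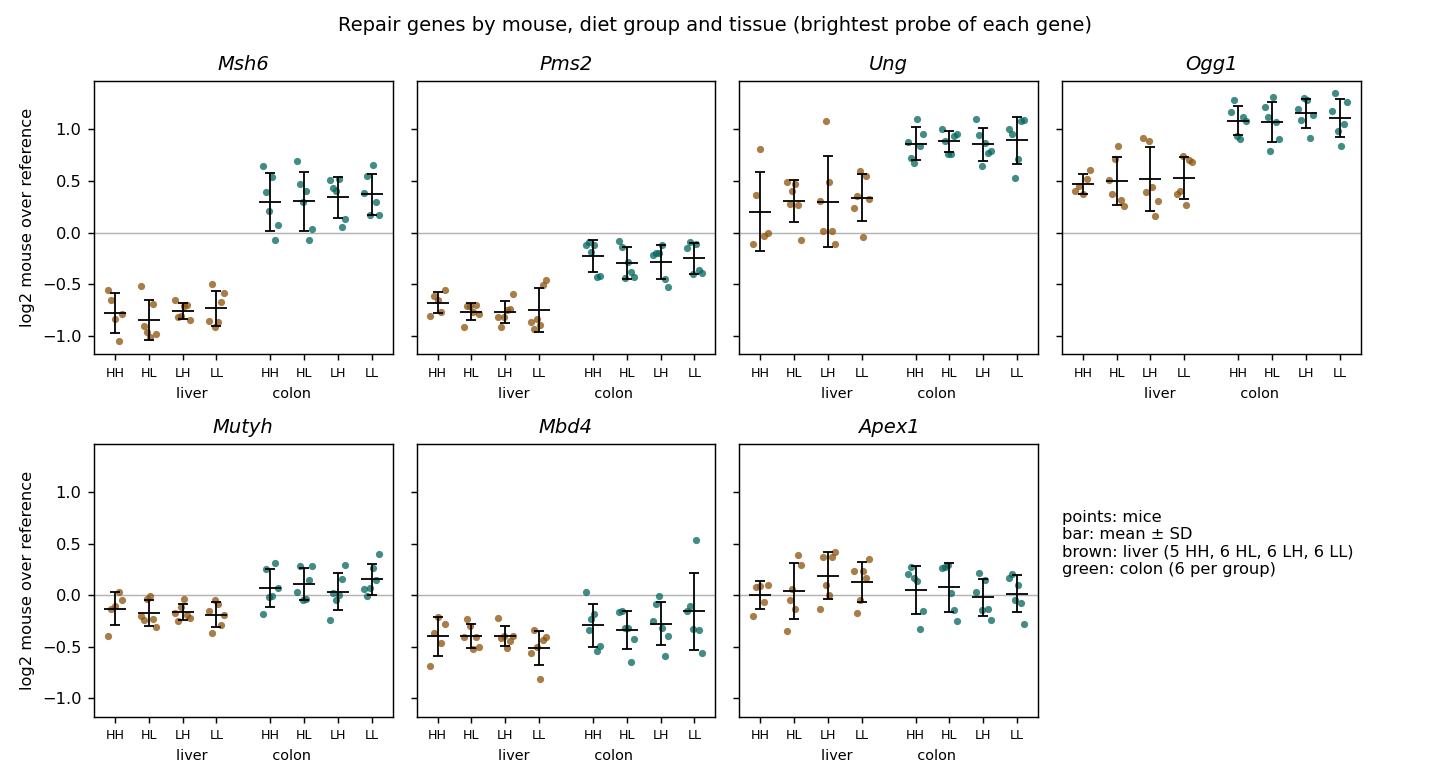
Log2 ratio of mouse over reference (vertical axis) for the brightest probe of each gene, by diet group in liver (brown, 5 HH, 6 HL, 6 LH, 6 LL) and colon (green, 6 per group); points are mice and bars are mean ± SD. Msh6 is separated between the tissues in all 47 mice (counted per tissue), while the 4 diet groups overlap within each tissue for each gene.

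Of the mismatch repair members, Msh6 showed the clearest separation. Its liver values in the 5 HH mice were -0.56, -0.65, -0.84, -1.06 and -0.79. They ran from -1.01 to -0.52 around a median of -0.94 in HL, from -0.85 to -0.65 around -0.76 in LH, and from -0.91 to -0.50 around -0.77 in LL. The 4 liver groups overlapped, and LH was the least spread. In colon the values ran from -0.08 to 0.65 (median 0.30) in HH, from -0.08 to 0.69 (0.35) in HL, from 0.06 to 0.52 (0.42) in LH and from 0.17 to 0.66 (0.34) in LL. The tissue means were -0.78 ± 0.16 (SD, n = 23) in liver and 0.33 ± 0.23 (n = 24) in colon, a difference of -1.11 ± 0.06 (SE, limma adjusted p = 2.83e-21).

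Pms2, the endonuclease of mismatch repair, was at -0.75 ± 0.13 in liver (range -0.93 to -0.46) and at -0.27 ± 0.15 in colon (range -0.53 to -0.08). Of the 23 liver mice 21 lay below the lowest colon mouse. The difference was -0.48 ± 0.04 (SE, limma adjusted p = 1.37e-13), under the fold limit. Aimp2, a scaffold of the aminoacyl-tRNA synthetase complex that starts beside Pms2, differed the other way, by 0.21 ± 0.05 (adjusted p = 7.47e-05), and by -0.38 when arrays were centred on the median in place of loess.

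Among the glycosylases, Ung lay between -0.12 and 1.08 in liver (mean 0.29 ± 0.31) and between 0.53 and 1.103 in colon (mean 0.87 ± 0.16), so liver mice were the more spread. Of 23 liver mice 19 lay below the lowest colon mouse. The difference was -0.59 ± 0.07 (SE, limma adjusted p = 1.28e-09), and without any 1 of 20 mice it was under the fold limit, with values between -0.63 and -0.57 over all 47 mice left out in turn.

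Ogg1 ran from 0.16 to 0.92 in liver (mean 0.51 ± 0.22) and from 0.79 to 1.35 in colon (mean 1.11 ± 0.16) on its brighter probe. The colon mice were higher, and 20 of 23 liver mice lay below the lowest of them. The difference was -0.60 ± 0.06 (SE, limma adjusted p = 8.73e-13), and -0.58, under the fold limit, without liver LH replicate 5. The second probe gave the same direction, -0.44 ± 0.08 (adjusted p = 1.44e-06), and followed the first across liver mice (r = 0.92, n = 23) more closely than across colon mice (r = 0.54, n = 24). The dim second probes of the other genes followed the main probe less, with r = 0.18 in liver and -0.19 in colon for Mbd4 and 0.02 and 0.50 for Mutyh.

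Mutyh and Mbd4 were dim in liver. The main probe of Mutyh was well above background on 19 of 24 liver arrays and on 24 of 24 colon arrays, with means of -0.17 ± 0.12 and 0.09 ± 0.16, a difference of -0.26 ± 0.04 (SE, limma adjusted p = 1.10e-06). Its second probe was well above background on 0 liver and 14 colon arrays. From the Cy3 channel alone, its colon mean was 1.05-fold above a liver mean raised to the lowest signal well above background. That is no firm bound, with 14 of 24 colon arrays well above background and no dye swap. In the ratio fit the probe differed by -0.15 (limma adjusted p = 0.000101), and by 0.49 under median centring, the opposite direction. Toe1, a nuclease of RNA processing whose start neighbours Mutyh, was at -0.24 ± 0.19 in liver and -0.25 ± 0.18 in colon (adjusted p = 0.85). Under median centring the difference of Toe1 was -0.60.

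The main probe of Mbd4 was well above background on 14 of 24 liver arrays and on 24 colon arrays. It was at -0.43 ± 0.14 in liver and at -0.27 ± 0.25 in colon, a difference of -0.16 ± 0.06 (SE, limma adjusted p = 0.0168). The second probe was well above background on 3 arrays of each tissue, so its difference of 0.27 (limma adjusted p = 7.31e-10) lay near background and was not set against that of the main probe. With the scanner's processed signals the main probe differed by -0.93, past the fold limit.

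Apex1, the main endonuclease for sites left without a base, was at 0.09 ± 0.22 in liver and at 0.03 ± 0.20 in colon, with ranges of -0.34 to 0.42 and -0.33 to 0.30. The ranges overlapped almost wholly. The difference of 0.06 had a 95% interval from -0.06 to 0.18 (limma adjusted p = 0.402). Under median centring it was -0.52, the opposite direction. Osgep, a tRNA modification enzyme on the other side of the Apex1 start, differed between liver and colon by -0.36 ± 0.04 (SE, adjusted p = 1.36e-10).

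The other genes of these pathways were read on the brightest probe of each gene. Each list count below stands beside 15.7% of all probes called higher in colon and 14.6% called higher in liver. The median liver minus colon difference of the 7 members was -0.48, against 0.01 over all probes. Of 19 other mismatch repair genes measured, 11 were called higher in colon and 1 higher in liver, with a median of -0.66. Those with the lowest p were Pcna, the sliding clamp of DNA polymerase (-1.44 ± 0.04, SE), Lig1, the DNA ligase of replication (-1.62 ± 0.05), and Pold1, the catalytic subunit of polymerase delta (-1.89 ± 0.07).

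Of 16 other base excision repair genes, 4 were called higher in colon and 6 higher in liver, with a median of 0.07. The lowest p belonged to Lig3, the ligase of short-patch repair (1.58 ± 0.05, SE), Nthl1, a glycosylase for oxidised pyrimidines (1.12 ± 0.04), and Neil3, a glycosylase for oxidised bases that was higher in colon. The probe of Neil3 was well above background on 1 of 24 liver arrays, so its difference of -1.03 has no firm size, and it ran from -4.17 to -0.84 over the alternatives. Of 7 genes of nucleotide pool cleaning and direct reversal, 3 were called higher in liver and 2 higher in colon. The former were Alkbh2 (0.99 ± 0.05) and Alkbh3 (0.88 ± 0.06), which remove alkyl groups from bases, and Nudt1 (0.82 ± 0.05), which destroys oxidised dGTP. Of 19 nucleotide excision repair genes, 3 were called higher in liver, as were 14.6% of all probes, and 0 higher in colon, against 15.7%. At FDR under 0.05 with no fold limit, 9 were higher in liver and 7 higher in colon, against 36.1% and 33.5% of all probes. The lowest p belonged to Rad23b (1.46 ± 0.08), a partner of the damage sensor XPC, and to Gtf2h5 (0.63 ± 0.04) and Gtf2h4 (0.56 ± 0.05), subunits of TFIIH. Median centring in place of loess kept the direction of each gene named here but Gtf2h4 (-0.0093). Under it the calls higher in colon and in liver became 7 and 2 for base excision repair, 2 and 0 for the nucleotide pool and 7 and 1 for nucleotide excision repair. Over all 41171 probes tested they were then 10231 and 13992.

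Proliferation markers differed between the tissues too. Of 16, 15 were called higher in colon, with a median difference of -2.00, and their mean level ran from -2.46 to -1.47 over liver mice and from -0.51 to 0.15 over colon mice. In liver 13 of the 16 were well above background on every array. Mki67 differed by -3.32 and Mcm6, a subunit of the replicative helicase, by -3.72. Adipocyte markers were also higher in colon (4 of 4 called). The part of either in the differences of the repair genes was not tested.

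**Figure D2:**
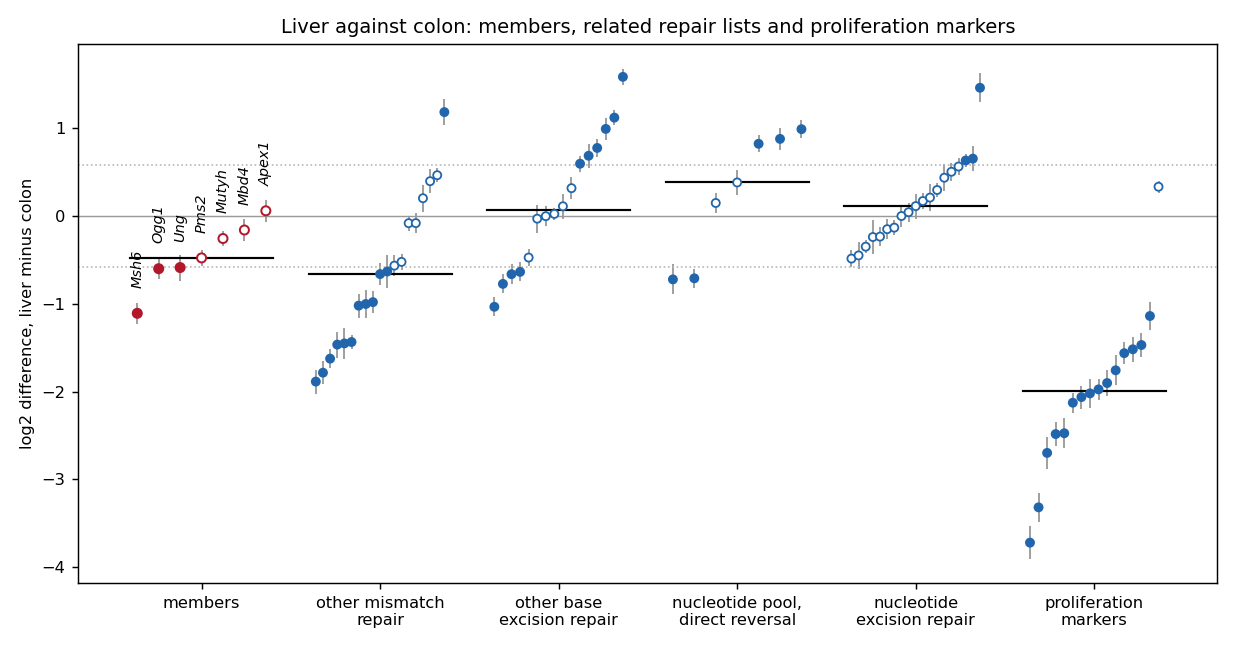
Log2 difference between liver and colon (vertical axis, negative is lower in liver) for the 7 members (red), for 4 lists of related repair genes and for proliferation markers (blue), each gene on its brightest probe with its 95% interval; filled points were called, dotted lines mark 1.5-fold and black lines the median of a list. The members reach from -1.11 for Msh6 to 0.06 for Apex1 (-0.52 under median centring), and the median is -0.66 for the other mismatch repair genes and 0.07 for the other base excision repair genes.

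The second question was whether the diets changed these genes. The interaction was taken as the mean of HH and LL minus the mean of HL and LH. This contrast is of smaller size than the full difference between diet effects. In limma 0 of the 10 member probes were called in the 9 contrasts of the liver or the 9 of the colon, where 0% of all probes were called in every contrast. At the same fold and FDR limits the study reports called liver probes, the most for HH vs. LH, and none in colon. What separates its liver calls from those here was not tested. At an unadjusted p under 0.05, 0 of 90 member differences passed in liver and 0 of 90 in colon. The shares of all probes at that level in liver were 12% for LH vs. HH, 4.37% for HL vs. HH, 3.45% for LL vs. HH, 3.08% for LL vs. HL, 6.38% for LL vs. LH, 1.74% for LH vs. HL, 4.16% for the dam diet, 1.37% for the offspring diet and 11.4% for their interaction. In colon they were 3.24% for LH vs. HH, 1.46% for HL vs. HH, 1.72% for LL vs. HH, 1.02% for LL vs. HL, 2.81% for LL vs. LH, 2.95% for LH vs. HL, 2.11% for the dam diet, 2.03% for the offspring diet and 1.79% for their interaction. The lowest adjusted p of a member probe was 0.523 in liver and 1.00 in colon.

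Each of the 90 differences in each tissue had a 95% interval inside 1.5-fold in either direction, the widest reaching 1.44-fold in liver and 1.38-fold in colon. Of these, 54 in liver and 72 in colon came from probes well above background on every array of the tissue. In the interaction the limit applies to the contrast of group means, and the full difference between diet effects is not covered by it. On the scale of group means the liver interaction of Ung had an interval from -0.30 to 0.23. For the dimmer probes a narrow interval does not bound a change in the RNA. A missed threshold does not show that the groups are alike, and smaller differences could not be resolved with 5 or 6 mice per group. In liver the largest was that of Apex1 in LH vs. HH. The HH mice ran from -0.20 to 0.10 around a mean of 0.00 ± 0.13 (n = 5) and the LH mice from -0.13 to 0.42 around 0.19 ± 0.23 (n = 6), so the groups overlapped. The difference was 0.19 ± 0.13 (SE, 95% interval -0.07 to 0.45, limma adjusted p = 0.579). The LH array was the higher one on 6 of 6 slides, by 0.07 to 0.28. Those 6 slides hold 5 HH mice, because 1 was on 2 slides. Apex1 and the mean level of the 6 hepatocyte markers had r = 0.74 over the 23 liver mice. That level was 1.52 in HH and 1.85 in LH, and its part in the Apex1 difference was not tested.

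Ung had the widest liver intervals. Its HH mice ran from -0.12 to 0.81 and its LL mice from -0.04 to 0.59, a difference of 0.14 with an interval from -0.25 to 0.52 (limma adjusted p = 1.00). Without single mice that difference ran from 0.06 to 0.29. Msh6 differed from HH by -0.07 in HL, 0.02 in LH and 0.04 in LL. Ogg1 differed from HH by 0.03 in HL, 0.05 in LH and 0.06 in LL.

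In colon the largest difference was that of Mbd4 in LL vs. HL, 0.18 ± 0.14 (SE, 95% interval -0.11 to 0.47, limma adjusted p = 1.00). The LL values were -0.15, -0.11, -0.33, 0.54, -0.34 and -0.56, and the HL values ran from -0.64 to -0.15. A single LL mouse, replicate 4, was thus above every other colon mouse. That mouse had a mean leukocyte marker level of 1.90, against -0.42 to 0.16 in the other colon mice, and without it the difference was 0.04. Over all 24 colon mice Mbd4 and the 6 leukocyte markers had r = 0.66, and r = -0.09 without the 2 mice farthest from the median. The part of the leukocyte markers in the Mbd4 values was not tested.

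**Figure D3:**
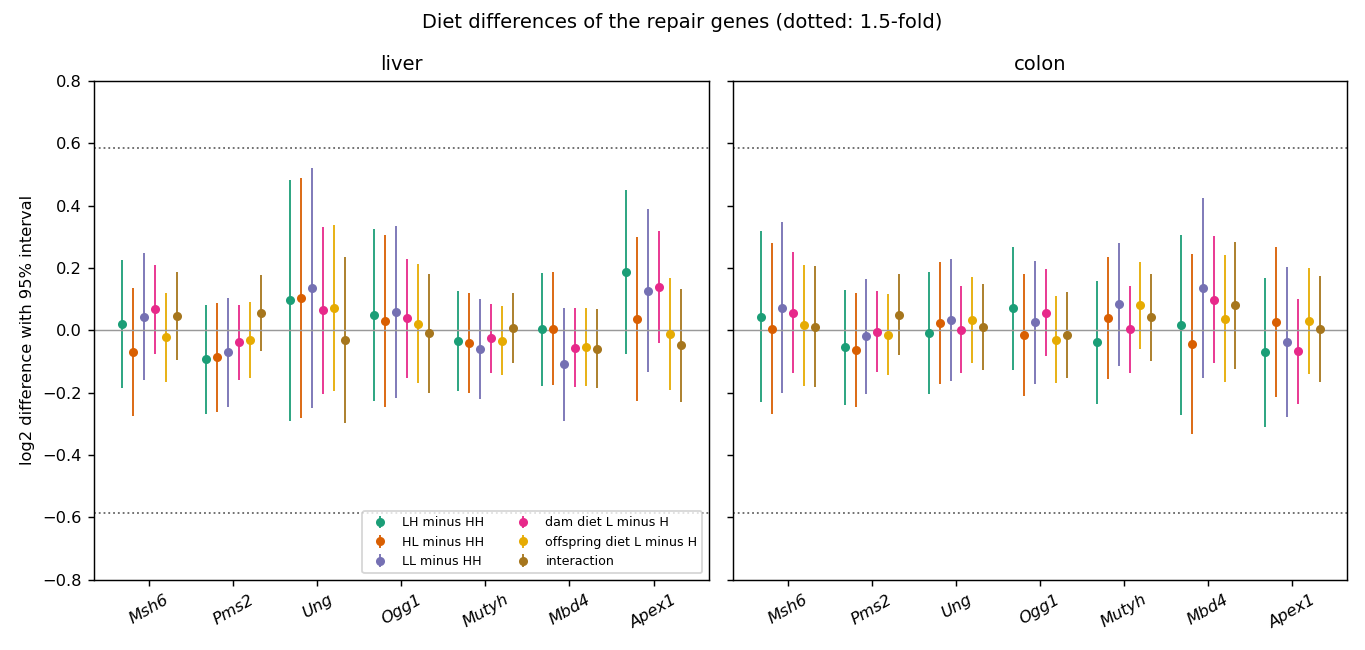
Log2 diet differences (vertical axis) with 95% intervals for the brightest probe of each gene in liver (left) and colon (right), for 6 of the 9 contrasts in colours; dotted lines mark 1.5-fold. The interaction is drawn as the mean of HH and LL minus the mean of HL and LH. On these scales the intervals cross 0 and stay inside 1.5-fold in both tissues.

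A diet effect that differs between the tissues was tested directly. In limma 0 of the 10 probes were called for the dam diet, the offspring diet or the interaction, as were 0% of all probes. At an unadjusted p under 0.05 the shares of all probes were 3.51%, 1.67% and 4.34%. The 1 member probe past that level was the dim second probe of Mbd4 for the interaction (-0.14 ± 0.07, SE, adjusted p = 0.981), well above background on 3 of 24 arrays in each tissue. Apex1 showed a dam diet effect of 0.14 in liver and -0.07 in colon, a difference of 0.21 ± 0.12 with an interval from -0.04 to 0.45 (adjusted p = 1.00).

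In the related lists 0 genes were called in any diet contrast of either tissue. Of 19 other mismatch repair genes 0 were called in LH vs. HH in liver, and at an unadjusted p under 0.05, 1 was higher and 3 were lower, where 12% of all probes passed in either direction. In the same contrast 7 of 16 proliferation markers were lower at that level and 0 higher, with 0 called and a median of -0.26, and their part in these differences was not tested. The mean level of these markers was -1.47 in liver HH replicate 3, the animal with 2 arrays. It was -2.14 to -2.03 in the other HH mice and -2.45 to -2.04 in the LH mice. Rfc4, a subunit of the clamp loader, differed by -0.37 ± 0.08 (SE, limma adjusted p = 0.18), Rpa3, a subunit of the single-strand binding complex, by -0.65 ± 0.18 (adjusted p = 0.229), and Pold2, a subunit of polymerase delta, by 0.47 ± 0.15 (adjusted p = 0.254). Of 16 other base excision repair genes in the same contrast 1 was past that level, Parp1, a sensor of strand breaks (0.51 ± 0.18, adjusted p = 0.272). Of 7 nucleotide pool genes 1 was, Nudt1 (-0.26 ± 0.08, adjusted p = 0.24). The list medians were -0.05, -0.01 and -0.07, against -0.01 over all probes.

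On the main probe of each gene, more of the variance lay between the 6 slides of a tissue than between its 4 diet groups. A split into 6 slides takes up more variance by chance than a split into 4 groups, so this order alone shows no slide effect. Each slide carried 1 array of each group. The dim second probe of Mbd4 in colon was the other way, with 10.4% between slides and 20.8% between diet groups. In colon, 80.1% of the variance of Msh6, 78.3% of that of Pms2 and 77.6% of that of Apex1 lay between slides, against a median of 55.3% over the probes well above background on every colon array. Between diet groups lay 1.76%, 3.21% and 3.62%. The slide means of Msh6 were 0.56, 0.46, 0.27, 0.53, 0.05 and 0.10 from the first to the last colon slide. The last pair of slides had the lowest means for Msh6, and also for Pms2 (-0.41 and -0.44) and Apex1 (-0.17 and -0.23). In liver the share between slides ran from 26.0% for Ogg1 to 52.6% for Mutyh on the main probes, against a median of 34.2%, while the second probes of the same genes held 52.2% and 24.6%. What distinguishes the slides beyond their number was not tested.

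**Figure D4:**
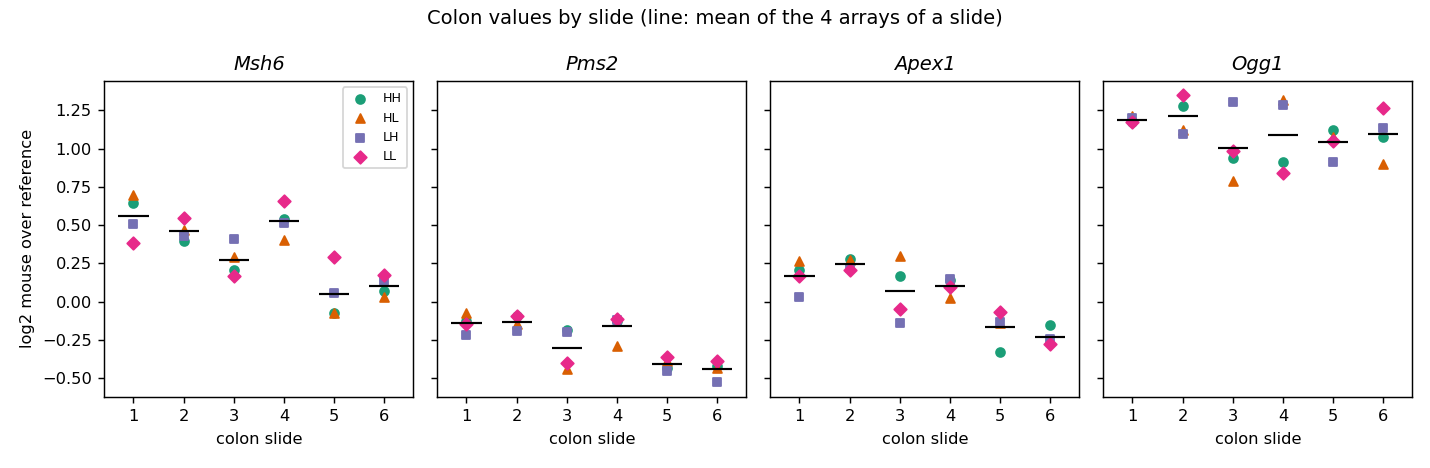
Colon values (log2 mouse over reference, vertical axis) of Msh6, Pms2, Apex1 and Ogg1 by slide in the order of the labels (horizontal axis), with 1 array of each diet group per slide as a marker and the slide mean as a line. The slide means of Msh6, Pms2 and Apex1 are lowest on the last pair of slides, though not every diet group is, and Ogg1 has 22.3% of its variance between slides.

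With slide as a fixed block and 1 array of the HH animal with 2, 0 of 90 differences per tissue were called, and the lowest adjusted p was 0.277 in liver and 0.637 in colon. Over all probes 0 were called in each contrast but the liver interaction, where 1 was. The widest interval of a member probe then reached 1.42-fold in liver and 1.32-fold in colon. Of 60 pairwise differences in liver 1 had the same sign on every slide, that of Apex1 above, and of 60 in colon 0 had. Counts this low can arise by chance alone, and the share over all probes was not computed.

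The correlations between members are a description over mice that share slides, and their difference between the tissues was not tested. The highest r in colon (n = 24) was 0.85 for Msh6 with Pms2, followed by 0.79 for Msh6 with Mbd4, 0.76 for Apex1 with Pms2 and 0.75 for Apex1 with Msh6. In liver (n = 23) the same pairs had r = 0.04, 0.09, 0.36 and -0.19. Ogg1 with Ung had the highest r in liver, 0.57, and 0.17 in colon. Mutyh ran against Msh6 in both tissues (r = -0.57 in liver and -0.48 in colon). Colon epithelial markers ran against Mbd4 (r = -0.77), Msh6 (-0.75) and Pms2 (-0.72) over the 24 colon mice, and their part in these values was not tested.

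The genes most like each member were found over 47 mice after each tissue's mean was subtracted, among named probes well above background on at least 44 of the 48 arrays. For Apex1 they were Thoc3 (r = 0.86) and Xrcc6 (0.86), the latter a subunit of the Ku complex of double-strand break repair. For Msh6 they were Itpa (0.81), which removes deaminated purine nucleotides, and Utp3 (0.80). Pms2 was closest to Eef2kmt (0.78) and Pyurf (0.78), and Mbd4 to Batf (0.82) and Cyb561a3 (0.82). For Mbd4 these were 0.91 and 0.89 over the colon mice, which include LL replicate 4, and 0.50 and 0.51 over the liver mice. Mutyh was closest to Rtel1 (0.74), a helicase of telomeres, and Vps39 (0.73), Ogg1 to Rab33b (0.80) and Taok1 (0.78), and Ung to Memo1 (0.62) and 1810037I17Rik (0.61). These mice share slides, and the values are a description.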

How the data were processed

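RNA of liver and colon was measured on 48 two-colour Agilent arrays, 24 per tissue. The authors deposited each array's scanner output (Feature Extraction 10.10.1.1), of which the median spot and background intensity of both channels, the processed intensity and the flags were used, without normalization beyond that of the scanner software for the processed signals. The authors' value table, also deposited, holds log2 of reference divided by mouse, so its sign was turned. It matched loess without background correction (lowest r 0.9997 over arrays). The submitters' processing notes name limma and R 3.0.2.

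A spot with a local background brighter than itself received the median background of its array (up to 12 spots per array in Cy3 and 28 to 544 in Cy5), since without this step normexp compressed the ratios of some arrays (lowest SD over probes 0.53, against 0.79 with it). Normexp (offset 50) and global loess followed. Control spots and flagged outlier spots were left out, and spots of a probe were averaged. Probes were named through their accessions in the RefSeq gene table, which matched 27050 of 41174 probes.

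limma 3.58.1 (R 4.3.3) fitted 4 groups per tissue, or 8 groups for tissue differences, with Benjamini-Hochberg adjustment over probes with a value in at least 2 mice per group. The 2 arrays of 1 HH liver animal were averaged (correlation of their deviations 0.81, against at most 0.26 for other HH pairs). Nothing in the labels says whether mice of a group came from separate litters, so p-values measure the spread between these mice. Scripts were tested on simulated data. Named genes were the members, the 3 genes of a related list with the lowest p in a contrast, the 2 genes most like each member, and opposite-strand neighbours within 1000 bases. The members, lists and tests were chosen with earlier results of these data known. The number of arrays limits the precision. Liver and colon samples carry different identifiers, so they could not be paired. The study's methods describe both tissues as excised from the offspring, so a liver and a colon sample may come from 1 animal. The tissue fit took them as separate animals, and a count of 47 mice adds those of each tissue.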

Additional observations from a re-analysis of the deposited data

Results flagged for a closer look

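Over 80 sets of 5 or 6 mice, 1 for each member probe and group, 2 held a mouse far from the others by a Dixon test, where chance alone marks about 1 set in 20. For the second probe of Mbd4, liver HL replicate 1 was at -0.24, against -0.07 in the next mouse. For the second probe of Ogg1, liver LL replicate 3 was at 0.87, against 0.54 in the next.

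The interaction of dam and offspring diet differed between liver and colon for the second probe of Mbd4, by -0.14 (unadjusted p = 0.0401, limma adjusted p = 0.981). That value is on the scale of group means, where the full difference between diet effects would be larger. This probe was well above background on 3 arrays of each tissue.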

How the results depend on the processing

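The count of member probes called for diet was 0 in both tissues under every alternative run, and so was the count for tissue differences in the dam or offspring diet effect. Differences at an unadjusted p under 0.05 numbered 0 in each tissue. In liver they became 1 without the repair of the background, with only the first array of the HH mouse, with slide as a fixed block or with array weights, and 2 with processed signals. In colon they became 2 without the repair or without mice of high Xist and low Eif2s3y, and 1 with normexp offset 0, Cy3 alone or array weights. Without single mice they ranged from 0 to 1 in each tissue. The liver difference past that level with slide as a fixed block was the second probe of Mbd4 in LH vs. HH. That probe was well above background on 3 of 24 liver arrays, and 14.1% of all probes passed in the same fit and contrast. For the other alternatives the share over all probes was not computed.

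The 3 probes called between liver and colon became 6 with median centring, 6 with processed signals and 9 with no fold limit, and without single mice ranged from 1 (without liver LH replicate 5) to 3. Over all probes the calls higher in colon and in liver went from 6474 and 6023 to 10231 and 13992 with median centring. With processed signals they were 10496 and 9779. The dim second probe of Mbd4, among the 9, was higher in liver, by 0.23 to 0.87 over the alternatives. Msh6 was called under each alternative, at -1.68 to -0.97. Ung and Ogg1 fell under the fold limit with offset 0 (-0.54 and -0.52) and with processed signals (-0.49 and -0.47), Ung with the HH mouse's arrays as 2 mice (-0.56) and Ogg1 with Cy3 alone (-0.50). Median centring put them at -1.21 and -1.23. Pms2 passed the limit with offset 0 (-0.61), median centring (-1.01) and processed signals (-0.73), and Mbd4 (-0.93) and Mutyh (-0.70) with processed signals. Median centring moved the median of all probes to 0.22, against 0.01, and turned the direction of Apex1 (-0.52), the second Mutyh probe (0.49), Gtf2h4 (-0.0093), Toe1 (-0.60) and Aimp2 (-0.38). Without single mice the difference of Toe1 ranged from -0.0118 (without liver LH replicate 3) to 0.0338. The cause of these changes was not tested. By replicate number, no paired analysis was possible because the labels give the mice none. Matched by slide as a fixed block, 0 member probes were called for diet, and over all probes 1 was, in the liver interaction. Probes dim in liver (Mutyh, Mbd4) limit what their ratios can resolve.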
